A study of Homo sapiens with 12 samples.

Results

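Day 9 lapatinib persisters of the breast cancer cell line BT474 were compared with untreated cells of the same line. The comparison used the 3 DTP libraries (drug-tolerant persisters, day 9) and the 3 Control libraries (day 0), which are 6 of the 12 mRNA libraries sequenced. All genes with a normalised read count of at least 1 in at least 3 of these 6 libraries were taken, which were 13155 of the 26485 genes listed. BT474 is an established human breast carcinoma line with an amplified ERBB2 (HER2) gene, and lapatinib inhibits the kinases of HER2 and EGFR. Both groups were unmodified BT474 cells grown in RPMI medium with fetal bovine serum. The DTP cells had received 1 µM lapatinib every 3 days up to day 9, when only few cells were left on the plates. Lapatinib at 1 µM is named in the treatment label of every library, Control included, so the untreated state of the Control cells rests on their title, which gives day 0. The remaining libraries came from cells regrown in the drug at month 6 and from resistant cells at month 9. The study's text describes the replicates once as technical and once as parallel plates. Here n counts libraries, and SDs and p-values may cover only the technical spread.

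HER2 signals as a dimer, mostly with HER3, and feeds the RAS and ERK cascade and the PI3K and AKT cascade. ERK drives early transcription and AKT keeps the FOXO transcription factors out of the nucleus, so both cascades reach the transcriptome. Persisters are the cells that outlive a dose of inhibitor that kills most of the population, usually without a resistance mutation and with little or no division. In bulk RNA, a change of the mean cell and a change in the make-up of the surviving population cannot be told apart, nor can fewer cells of a kind and less RNA per cell.

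Depth was 18619398 to 22022737 assigned reads in Control and 16383363 to 19233496 in DTP libraries, and 3 reads, the limit that a count of 0 allows, were worth 0.138 to 0.173 normalised read counts. The Control libraries lay closer together than the DTP libraries, with a median SD of a gene of 0.07 and 0.17 on the log2 scale. DTP replicates 1 and 3 stood at opposite ends, with replicate 2 between them for most genes. The 10 markers of a HER2-positive luminal line were all present, with summed values of 11600 to 17100 normalised read counts. Markers of other cell types were near the floor, since 9 of 12 leukocyte, 9 of 11 fibroblast and 5 of 8 endothelial markers had 3 reads or fewer in every library. Among them PTPRC, CD3E, PDGFRB and PECAM1 lay between 0 and 0.217 normalised read counts in all 6 libraries. The fibroblast list summed to at least 48.4 normalised read counts, nearly all from COL1A1, and the leukocyte list to 2.44 to 7.30. The basal and myoepithelial list summed to up to 14.2 in Control and 4.49 to 6.97 in DTP libraries, with the basal keratin KRT5 at 0. Whether these traces bear on any result was not tested.

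To ask which transcripts change on entry into drug tolerance, DTP was tested against Control with limma on log2(value + 1). A gene is said to have risen or fallen where the Benjamini-Hochberg adjusted p was below 0.05 and the log2 change was above 1 or below -1. A change given by a single number below is a log2 change. By that rule 1306 genes (9.93% of those tested) were higher and 2202 (16.7%) were lower in DTP cells. Counts of list members given below are to be set against these shares. With the threshold of 2 that the study used, 140 genes (1.06%) were higher and 538 (4.09%) were lower. The adjusted p alone was passed by 4793 genes (36.4%) upward and 5099 (38.8%) downward, and the 2 groups of libraries did not overlap for 79.0% of all genes, so separation of the groups was the common state. Of the 1306 higher genes, 175 had passed the filter through the DTP libraries alone, and of the 2202 lower genes 207 through the Control libraries alone. Such genes had to differ to be tested at all.

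**Figure D1:**
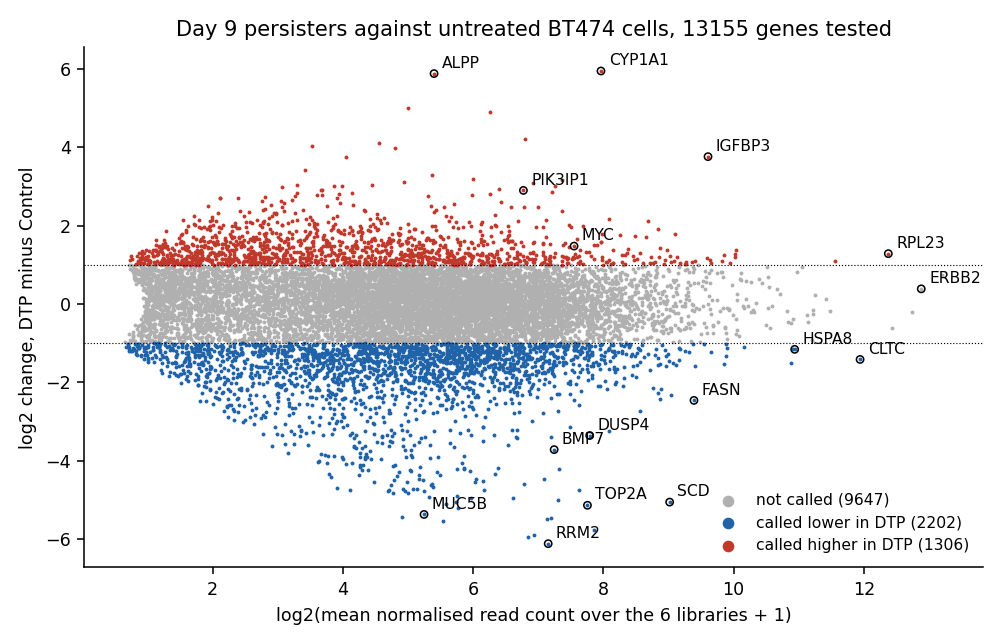
Log2 change between DTP and Control (vertical axis) against log2 of the mean normalised read count over the 6 libraries plus 1 (horizontal axis), for 13155 genes. Red points are the 1306 genes called higher and blue points the 2202 called lower, dotted lines mark log2 changes of 1 and -1, and the genes that fell reached further from 0 (RRM2, -6.12) at high expression than most that rose.

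The excess of lower over higher genes went with transcript length and base composition. Among 1139 genes with a canonical transcript over 8000 bases, the median log2 change was -0.85 and 42.3% were called lower. Among 919 genes with a transcript of up to 1000 bases, the median was 0.44 and 4.57% were called lower. GC content ran the other way, from a median of -0.75 in the 2167 genes with up to 40% GC to 0.35 in the 1936 genes above 60%. Across 12948 genes, which are not independent replicates, Spearman's rho of the log2 change was -0.43 with length and 0.42 with GC. The same pattern separated libraries of one group. The difference between DTP replicates 1 and 3 had a rho of 0.75 with GC and -0.54 with length, and that between Control replicates 3 and 2 had 0.56 and -0.23. When the trend with length and GC was taken out of each library, an alternative added after the data were seen, 1215 genes (9.38%) were higher and 1153 (8.90%) were lower. The calls that both fits shared were 767 higher and 1004 lower genes. Values with that trend removed are given below wherever they end or make a call, and what produced the trend was not tested.

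**Figure D2:**
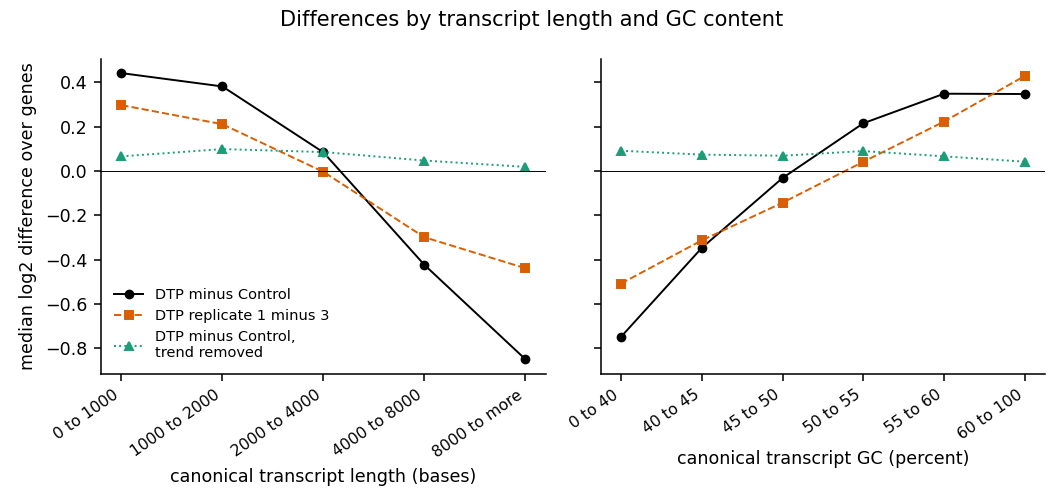
Median log2 difference over genes in bins of canonical transcript length in bases (left) and GC content in percent (right). Black circles are DTP minus Control, orange squares are DTP replicate 1 minus replicate 3, and green triangles are DTP minus Control after the trend was removed. The first falls from 0.44 to -0.85 over the length bins, the second runs in parallel with it, and the third stays between 0.02 and 0.10.

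The largest block of change was the loss of cell division transcripts. All 41 tested genes of mitosis and the kinetochore fell, with a median log2 change of -4.18, against -0.01 over all genes tested. Of 48 DNA replication genes, 45 fell and none rose (median -2.02). With the length and GC trend removed the counts were 41 and 43.

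Within mitosis, TOP2A, the topoisomerase that untangles sister chromatids, was at 429, 423 and 404 normalised read counts in Control replicates 1, 2 and 3 and at 8.87, 11.2 and 13.1 in DTP replicates 1, 2 and 3 (log2 change -5.14, SE 0.13, limma adjusted p 5.75e-08). Values of single libraries follow this order of replicates throughout. CENPF, a kinetochore and nuclear matrix protein, stood at 310.4, 304 and 301 in Control and 7.05, 9.18 and 9.79 in DTP libraries. The 2 groups were far apart for both genes, and in each the DTP library with the highest value was replicate 3. CDK1, the kinase that triggers mitosis, went from 137 ± 10.9 to 4.13 ± 0.564 (mean ± SD, n = 3, log2 change -4.75, SE 0.11, limma adjusted p 5.75e-08). ANLN, a scaffold of the cleavage furrow, changed by -5.48, and MYBL2, an activator of mitotic genes, by -4.96 on the log2 scale. The transcript of BIRC5 (survivin), a chromosomal passenger protein, was lower by the ratio of means by 31.9-fold. AURKA, the centrosomal Aurora kinase, fell less than these, from 317, 315 and 316 to 54.1, 59.7 and 58.6 normalised read counts (log2 change -2.44, SE 0.07, limma adjusted p 7.56e-08), and so kept a clear signal in every DTP library.

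Promoters of many cell cycle genes carry short elements that help to time their transcription. The cell cycle genes homology region (CHR, TTTGAA, or TTCAAA on the other strand) is bound by MuvB complexes, and TTCCCGC and TTGGCGC with their reverse complements are forms of the E2F site. RefSeq promoter windows (GRCh38) were at hand for 10477 of the tested genes, and the 250 bases upstream of the first listed start were searched. The CHR letters were found in 19 of 35 mitotic genes with a window (54.3%), in 11.7% of all genes called lower, in 6.16% of those called higher and in 8.17% of all 10477. An E2F form was found in 19 of 42 replication genes (45.2%), in 16.6% of genes called lower, in 9.19% of those called higher and in 12.8% of all. CCAAT, the NF-Y box, was in 74.3% of the mitotic and 57.1% of the replication windows, against 35.3% of all. It was as frequent in other lists, with 75% of 20 sterol synthesis, 57.1% of 21 integrated stress response and 55.6% of 27 FOXO list windows, so it did not set the cell cycle genes apart. These searches counted letters, and a match is no evidence of binding.

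The upstream sequences of 2 mitotic and 2 replication genes, ESPL1, CDT1 and MCM6 among them chosen after their values were seen, are shown to place these elements, 250 bases each, 5′ to 3′ along the gene, from RefSeq on GRCh38 and free of any annotated exon. Capitals mark the CHR in TOP2A (chr17:40417897-40418146, minus strand) and ESPL1 (chr12:53268049-53268298, plus strand) and the E2F forms in CDT1 (chr16:88803539-88803788, plus strand) and MCM6 (chr2:135876444-135876693, minus strand).
TOP2A: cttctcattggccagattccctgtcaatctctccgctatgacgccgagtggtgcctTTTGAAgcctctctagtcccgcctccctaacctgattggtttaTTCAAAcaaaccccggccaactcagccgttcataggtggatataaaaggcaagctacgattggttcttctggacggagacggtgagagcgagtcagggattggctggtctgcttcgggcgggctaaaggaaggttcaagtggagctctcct
ESPL1: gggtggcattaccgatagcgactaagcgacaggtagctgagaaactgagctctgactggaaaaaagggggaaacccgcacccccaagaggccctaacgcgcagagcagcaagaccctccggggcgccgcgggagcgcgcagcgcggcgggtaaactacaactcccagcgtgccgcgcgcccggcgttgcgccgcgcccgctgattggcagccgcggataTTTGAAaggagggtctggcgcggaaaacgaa
CDT1: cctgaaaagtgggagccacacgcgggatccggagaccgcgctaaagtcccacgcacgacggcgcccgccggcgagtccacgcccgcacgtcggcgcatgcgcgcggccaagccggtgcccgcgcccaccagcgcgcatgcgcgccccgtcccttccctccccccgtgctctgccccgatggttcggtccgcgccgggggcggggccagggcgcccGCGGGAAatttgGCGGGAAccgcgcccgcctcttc
MCM6: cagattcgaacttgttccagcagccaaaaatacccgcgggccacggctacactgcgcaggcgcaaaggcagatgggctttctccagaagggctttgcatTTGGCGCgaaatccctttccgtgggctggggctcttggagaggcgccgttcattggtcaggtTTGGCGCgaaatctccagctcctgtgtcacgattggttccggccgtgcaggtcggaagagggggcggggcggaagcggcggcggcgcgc
TOP2A had its matches beginning 194 and 151 bases upstream of the start, and ESPL1, which encodes separase, had 1 match at 31 bases. The E2F forms began 35 and 23 bases upstream in CDT1, a loading factor of the replicative helicase, and 151 and 89 bases upstream in MCM6, a subunit of that helicase. Log2 changes of these 4 genes were -5.14, -4.78, -3.34 and -2.79, all with limma adjusted p below 0.05, and their groups did not overlap. Only called genes that carried the element could be shown, with large changes first, so the matches and the calls were set by that choice.

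Replication genes fell to different depths. RRM2, the small subunit of ribonucleotide reductase, had the lowest log2 change of all genes with separated groups, at 282, 283 and 273 normalised read counts in Control and 2.296, 4.097 and 2.94 in DTP libraries (log2 change -6.12, SE 0.15, limma adjusted p 5.75e-08). That rank holds with 1 added to each value, and by the ratio of means CASC5 fell further (153-fold against 89.9-fold). The partner of RRM2, RRM1, whose protein is stable through the cycle, fell to 39.1, 40.97 and 49.9 from 192, 193 and 194 (log2 change -2.14, SE 0.1, limma adjusted p 9.47e-07). The initiation factor MCM10 changed by -5.53 and the helicase subunit MCM2 by -2.29. PCNA, the sliding clamp, was at 280.1, 279 and 286 in Control and 68.3, 67.4 and 70.2 in DTP cells (log2 change -2.02, SE 0.06, limma adjusted p 1.19e-07). The nucleotide enzymes TYMS and TK1 fell, with log2 changes of -4.6 and -4.21, and DTL, which directs the destruction of CDT1, by 5.11.

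DNA repair genes followed in part. Of 44 tested, 28 fell and 1 rose (median -1.41), the one that rose being ERCC1 (1.09, and 0.9 with the trend removed), or 21 and 0 with the length and GC trend removed. Genes of recombination led, with EXO1, a 5′ exonuclease, at 106, 105 and 105 against 1.62, 1.73 and 2.303 normalised read counts (log2 change -5.21, SE 0.11, limma adjusted p 5.29e-08). BRCA1 went from 116, 116 and 117 to 4.44, 5.13 and 5.87 (log2 change -4.26, SE 0.11, limma adjusted p 5.75e-08). BRIP1 and POLQ fell, with log2 changes of -4.61 and -4.54. The damage kinase ATM was called lower at -1.27, but its value with the trend removed was 0.03. XPC, the lesion sensor of nucleotide excision repair, lay above every Control library in all 3 DTP libraries, at 123, 130.3 and 134 against 64.5, 64.8 and 65.9 (log2 change 0.98, limma adjusted p 9.18e-06), just inside the limit of 1.

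Regulators of the G1 phase were mixed. Of 29 tested, 16 fell and 2 rose. CCNE2 (cyclin E2) was at 164, 163 and 133 in Control and 5.22, 6.32 and 8.81 normalised read counts in DTP cells (log2 change -4.33, SE 0.17, limma adjusted p 4.2e-07). The repressor-type E2F factors E2F7 and E2F8 fell, with log2 changes of -4.34 and -4.05. Cyclin D1 (CCND1), the cyclin that mitogens induce, went from 399, 385 and 363 to 206, 222 and 252, a log2 change of -0.76 that did not reach the limit (limma adjusted p 0.000111). CDKN1C (p57), an inhibitor of cyclin-dependent kinases, rose from 0.276, 0.326 and 0.606 to 5.38, 6.17 and 5.12 (log2 change 2.23, SE 0.13, limma adjusted p 3.09e-06), from a level of few reads. CDKN2B (p15) was called higher at 1.06, and was at 0.88 without DTP replicate 3 and 0.95 without Control replicate 3, which ended the call. CDKN1A (p21) had values of 44.8, 42.7 and 40.2 against 26.5, 26.6 and 25.7 (log2 change 0.67), and CDKN1B (p27) had overlapping groups (106, 106 and 85.9 against 74.8, 82.5 and 99.1).

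Of 39 chromatin-modifying enzymes 15 fell and 2, HDAC5 and EZH1, rose, and 8 and 3 with the trend removed. The maintenance methyltransferase DNMT1 fell from 500.2, 497 and 524 to 114, 113 and 129 (log2 change -2.09, SE 0.07, limma adjusted p 2.43e-07), the Polycomb methyltransferase EZH2 from 155, 142 and 152 to 50.9, 53.95 and 50.04 (log2 change -1.52, SE 0.07, limma adjusted p 1.3e-06), and the remodeller HELLS by 3.33. HDAC5, a class IIa deacetylase, rose from 12.2, 12.4 and 13.5 to 74.5, 72.4 and 61.5 normalised read counts (log2 change 2.36, SE 0.1, limma adjusted p 7.12e-07), with no overlap. H2AFZ (H2AZ1) fell by 1.15. The H3K4 demethylases KDM5A and KDM5B had log2 changes of -0.51 and -0.32, which turned to 0.49 and 0.52 with the trend removed, so no direction can be given for either.

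**Figure D3:**
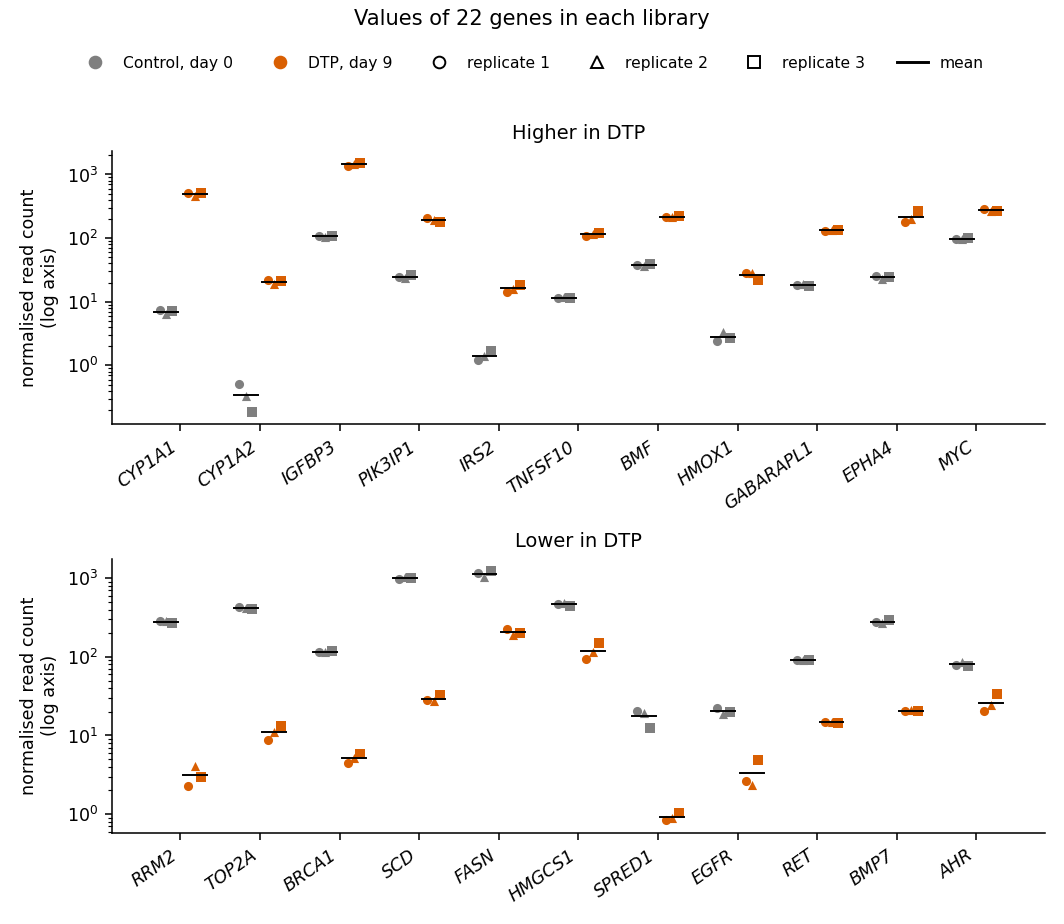
Normalised read counts on a log axis for 22 genes, 11 that rose (top) and 11 that fell (bottom). Grey marks are Control and orange marks DTP libraries, marker shape gives the replicate and black bars the mean. The groups are separated for each gene, from CYP1A1 (7.36 to 504 in replicate 1) to MYC (96.1 to 289 in replicate 1).

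Genes of lipid synthesis were lower as well. Sterol and fatty acid genes are driven by the SREBP factors, which act downstream of AKT and mTOR. Of 20 tested genes of fatty acid synthesis and lipid storage 13 fell and 1, AGPAT2 at 1.25 (0.83 with the trend removed), rose (median -1.17), and 8 and 0 with the trend removed. SCD, the desaturase that makes oleate, stood at 979, 1031 and 1005 in Control and 27.9, 27.8 and 32.4 in DTP libraries (log2 change -5.05, SE 0.08, limma adjusted p 2.81e-08), a 34.3-fold lower mean. FASN, fatty acid synthase, fell from 1156, 1026 and 1223 to 225, 190.4 and 201 (log2 change -2.46, SE 0.09, limma adjusted p 2.96e-07). ACACA, which makes malonyl-CoA, fell from 1329, 1374 and 1395 to 427, 457 and 539, a log2 change of -1.53 that became -0.92 with the trend removed. The desaturase FADS2, the elongase ELOVL6 and the factor SREBF1 fell, with log2 changes of -2.16, -2.39 and -2.05, with ELOVL6 at -1.57 when the trend was removed. PLIN2, the lipid droplet coat protein, had overlapping groups at 20.97, 19.9 and 21.1 in Control and 18.3, 18.4 and 20.3 in DTP libraries.

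Of 25 sterol synthesis and uptake genes 12 fell and none rose (median -0.9), and 10 fell with the trend removed. HMGCS1, the first committed enzyme, fell from 472, 481 and 447 to 93.3, 115 and 149 (log2 change -1.99, SE 0.15, limma adjusted p 1.25e-05, and -1.09 with the trend removed), and DTP replicate 3 was the highest of the DTP libraries. The gene of the factor itself, SREBF2, had a log2 change of -0.65 (limma adjusted p 3.2e-05), above the limit of -1. In fatty acid oxidation and ketone synthesis 1 of 23 genes rose and 1 fell, and 3 and 1 with the trend removed.

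Targets of ERK were lower in part. Of 19 genes on the list 15 passed the filter, of which 7 fell and 1 rose, against 16.7% and 9.93% of all genes. With the trend removed 8 fell and 1 rose. ETV4, ETV5 and SPRY4 were below 1 in every DTP library. They passed the filter through the Control libraries alone, so they had to differ to be tested. DUSP4, a nuclear phosphatase that ERK induces, went from 404, 399 and 403 to 37.7, 36.8 and 40.8 (log2 change -3.36, SE 0.07, limma adjusted p 4.26e-08). SPRED1, an inhibitor of RAS signalling, was at 20.8, 19.5 and 12.5 in Control and 0.835, 0.888 and 1.04 in DTP libraries (log2 change -3.25, SE 0.18, limma adjusted p 2.85e-06, and -2.01 with the trend removed), with Control replicate 3 the lowest of its group. The PEA3-type ETS factors ETV4 and ETV5 fell from 7.31, 8.697 and 7.73 to 0.157, 0.0987 and 0.173 and from 8.23, 8.53 and 9.88 to 0.157, 0.197 and 0.346. The DTP values of ETV4 were 3, 2 and 3 reads, so the size of its fall is uncertain. Its Control mean was 45.8 times the value of 3 reads, which is no lower bound for counts above 0. DUSP6, a cytoplasmic ERK phosphatase that the study followed and that is named here after its values were seen, went from 18.4, 20.8 and 17.2 to 1.72, 2.67 and 2.65 (log2 change -2.57, SE 0.15, limma adjusted p 3.09e-06). SPRY4, a feedback inhibitor, changed by -2.69, whereas SPRY2 was low in both groups, at 2.76, 2.12 and 2.38 in Control and 1.88, 1.83 and 1.73 in DTP libraries. DUSP5 had a log2 change of -0.86, inside the limit, and was past it at -1.17 with the trend removed. The member that rose was EPHA4, an ephrin receptor, from 25.8, 22.6 and 24.1 to 179.6, 199 and 266 (log2 change 3.08, SE 0.14, limma adjusted p 9.24e-07).

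Immediate early genes did not share this direction. Of 14 tested 4 rose and 2 fell, against 9.93% and 16.7% of all genes. With the trend removed 2 rose and 3 fell, against 9.38% and 8.90%. EGR1 fell from 92.8, 107 and 74.6 to 49.8, 12.6 and 35.9 (log2 change -1.64, SE 0.43, limma adjusted p 0.00805), with DTP replicate 2 the lowest, and NR4A1 from 31.4, 36.9 and 26.04 to 12.2, 10.3 and 9.62 (log2 change -1.46, SE 0.15, limma adjusted p 5.18e-05). With the variance shared over all 12 libraries neither passed (limma adjusted p 0.127 and 0.0561). FOS ranged from 8.24 to 27.9 in DTP and from 11.9 to 19.95 in Control libraries, and JUN likewise overlapped. ATF3, a stress-induced factor, rose from 3.13, 2.99 and 3.49 to 13.7, 14.9 and 14.1 (log2 change 1.86, SE 0.1, limma adjusted p 2.61e-06), and BTG2, an antiproliferative gene, from 93.1, 92.8 and 91.9 to 301, 287 and 293 (log2 change 1.65, SE 0.06, limma adjusted p 3.09e-07). JUNB was called at 1.13, on values of 93.5, 49.8 and 46.8, and lost the call without DTP replicate 1 (0.81) and with the trend removed (0.72).

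Of the ERBB family itself 11 genes were tested, of which 3 fell and none rose, and 1 fell with the trend removed. EGFR went from 22.4, 18.9 and 19.8 to 2.66, 2.37 and 4.84 (log2 change -2.36, SE 0.2, limma adjusted p 2.43e-05). The ligands TGFA and EGF fell, with log2 changes of -1.16 and -1.49, and were at -0.8 and -0.76 with the trend removed. ERBB2 had values of 6389.8, 6356 and 6833 in Control and 9136, 8583 and 7917 in DTP libraries, a log2 change of 0.39, and ERBB3 had 377, 378 and 396 in Control and 433, 443 and 488 in DTP libraries, a change of 0.24 (limma adjusted p 0.00123 and 0.0117). Both were higher in each DTP library than in any Control library by less than the limit of 1. Other receptor kinases split, since RET fell from 91.5, 90.7 and 90.8 to 14.9, 14.8 and 14.6 (log2 change -2.55, SE 0.08, limma adjusted p 9.61e-08) and MERTK, a TAM receptor, rose from 32.7, 28.9 and 31.5 to 123, 122 and 142 (log2 change 2.02, SE 0.09, limma adjusted p 9.11e-07). FGFR3 and FGFR4 fell, with log2 changes of -1.92 and -1.6. IGF1R overlapped between the groups, and MET had -0.59, or 0.12 with the trend removed.

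FOXO factors are held inactive by AKT, and genes that PI3K signalling represses are read here as one list. Of 32 tested 15 rose and 3 fell (median 0.95). With the trend removed 19 rose and 1 fell. Besides SESN3 the lower members were RICTOR and TP53INP2, at -1.98 and -1.02 (-0.64 and -1.11 with the trend removed). PIK3IP1, an inhibitor of the PI3K catalytic subunit, was at 24.7, 23.4 and 26.5 in Control and 205, 189.7 and 181 normalised read counts in DTP cells (log2 change 2.9, SE 0.08, limma adjusted p 9.08e-08). IRS2, an adaptor of the insulin receptor, rose from 1.196, 1.41 and 1.68 to 14.4, 15.8 and 18.4 (log2 change 2.82, SE 0.13, limma adjusted p 9.88e-07). TNFSF10 (TRAIL), a death ligand, rose from 11.6, 11.8 and 11.3 to 106, 116 and 122 (log2 change 3.2, SE 0.09, limma adjusted p 6.7e-08). These genes had narrow groups, with DTP libraries that differed among themselves far less than from Control. YPEL3 and FOXO1 rose by 2.79 and 1.33. INSR, the insulin receptor, and TXNIP, a brake on glucose uptake, were higher in each DTP library, with log2 changes of 0.96 and 0.8 that stayed under the limit (limma adjusted p 5.98e-05 and 3.25e-05). With the trend removed INSR was past the limit at 1.48 and TXNIP under it at 0.98. SESN3 was called lower at -1.18 but stood at 0.12 with the trend removed and at -0.93 without DTP replicate 1. FOXO3 overlapped between the groups at 115, 119 and 108 in Control and 78.4, 92.2 and 131 in DTP libraries.

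Binding proteins of the insulin-like growth factors (IGF) were examined beside them. IGFBP3, a secreted protein that binds IGF, rose from 108, 102 and 108 to 1374, 1465 and 1514 (log2 change 3.76, SE 0.07, limma adjusted p 4.23e-08), a 13.7-fold higher mean, and was among the genes with the largest gain in absolute value. IGFBP4 rose from 277, 281 and 278 to 725, 655 and 547 (log2 change 1.19), although not with all 12 libraries in the fit (limma adjusted p 0.064) nor with the trend removed (0.82). IGFBP5 and IGFBP2 overlapped between the groups, at 7141, 7329 and 7489 against 5844, 6007 and 7146 and 81.9, 79.4 and 90.2 against 101, 84.8 and 62.4. Of 9 tested genes of this list 4 rose and none fell.

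In the BCL2 family and death receptor list 2 of 24 tested genes rose and 3 fell, no larger shares than the 9.93% and 16.7% of all genes. BMF, a BH3-only protein released from the cytoskeleton, rose from 37.4, 36.4 and 39.6 to 214, 212 and 222 (log2 change 2.48, SE 0.07, limma adjusted p 8.26e-08). BBC3 (PUMA) was at 6.67, 7.23 and 6.75 in Control and 40.8, 28.9 and 20.7 in DTP libraries (log2 change 1.93, SE 0.21, limma adjusted p 8.74e-05), with replicate 1 highest. PMAIP1 (NOXA) fell from 18.3, 18.9 and 17.1 to 3.91, 5.18 and 5.93 (log2 change -1.68, SE 0.14, limma adjusted p 2.14e-05). BCL2L11 (BIM) overlapped, at 79.5, 83.2 and 77.7 in Control and 72.3, 73.3 and 89.1 in DTP libraries. Among survival genes BCL2 overlapped, at 47.1, 45.9 and 40.5 in Control and 43.1, 46.2 and 56.4 in DTP libraries, and MCL1 had a log2 change of -0.3. XIAP was called lower at -1.28, and was at -0.15 with the trend removed. Targets of p53 gave 3 higher and 4 lower of 18, against 9.93% and 16.7% of all genes, or 2 and 1 with the trend removed. Among them MDM2 was at -1.31 (-0.28 with the trend removed).

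CYP1A1, a cytochrome P450 that the aryl hydrocarbon receptor (AHR) induces, had the highest log2 change of all genes. That rank holds with 1 added to each value, and by the ratio of means ALPP rose further, 199-fold. CYP1A1 was at 7.36, 6.41 and 7.13 normalised read counts in Control and 504, 463 and 503 in DTP libraries (log2 change 5.95, SE 0.08, limma adjusted p 2.34e-08), a 70.3-fold higher mean. Its neighbour CYP1A2, which shares a regulatory region with it, rose from 0.506, 0.326 and 0.186 to 21.97, 19.1 and 21.4 (log2 change 4.03, SE 0.13, limma adjusted p 1.2e-07). The third family member did not follow, as CYP1B1 fell from 16.01, 14.1 and 11.4 to 4.23, 3.801 and 8.06 (log2 change -1.27, SE 0.24, limma adjusted p 0.00165, and -0.75 with the trend removed). The receptor gene AHR fell from 79.5, 85.7 and 76.7 to 20.2, 24.4 and 33.6 (log2 change -1.62, SE 0.17, limma adjusted p 5.73e-05, and -0.78 with the trend removed). Other genes that the receptor induces moved little, with AHRR, its repressor, at 40.1, 35.1 and 35.9 in Control and 52.5, 50.3 and 54.01 in DTP libraries (log2 change 0.49), TIPARP at -0.39 (0.17 with the trend removed) and NQO1 at 0.65. So of 8 tested members 2 rose and 2 fell, and the rise was that of the CYP1A pair.

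The receptor with its partner ARNT binds the xenobiotic response element, whose core here is TTGCGTG, which reads as CACGCAA on the other strand. Part of the CYP1A1 upstream region is shown, 300 bases that begin 1100 bases upstream of its RefSeq start (chr15:74726329-74726628, hg38, minus strand, 5′ to 3′ along the gene), with matches in capitals.
CYP1A1: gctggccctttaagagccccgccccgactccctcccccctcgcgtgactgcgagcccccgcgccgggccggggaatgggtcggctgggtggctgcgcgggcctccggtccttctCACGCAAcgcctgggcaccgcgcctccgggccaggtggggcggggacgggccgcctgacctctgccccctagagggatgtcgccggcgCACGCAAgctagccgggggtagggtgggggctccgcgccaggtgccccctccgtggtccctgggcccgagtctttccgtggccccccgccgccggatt
It held 2 matches, beginning 986 and 898 bases upstream, and lies outside every exon of GENCODE 44. The window was placed where such elements are known in this gene, so the matches are a description. In the 250 bases next to the start, none of 7 members of the AHR list with a window had the letters, against 1.37% of all genes and 1.46% of those that rose.

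Stress and recycling genes rose in part. Of 25 genes of the integrated stress response and amino acid supply 8 rose and 3 fell, and 4 and 2 with the trend removed. DDIT3 (CHOP) was at 35.2, 36.5 and 36.8 in Control and 156, 157 and 131 in DTP libraries (log2 change 2.0, SE 0.09, limma adjusted p 9.1e-07), and asparagine synthetase (ASNS) at 89.3, 84.96 and 86.8 in Control and 185, 187 and 178 in DTP libraries (log2 change 1.07, SE 0.07, limma adjusted p 4.22e-06). The driver ATF4 had values of 290.4, 294 and 300.2 against 558, 538 and 473, a log2 change of 0.82 inside the limit. The glutamine transporter SLC1A5 fell by 1.4. SLC7A11, the cystine carrier, overlapped between the groups at 5.93, 5.33 and 4.33 in Control and 4.28, 3.31 and 6.16 in DTP libraries, and its log2 change of -0.17 became 1.24 with the trend removed. The ER chaperone HSPA5 had 475, 469.6 and 489 in Control and 849, 853 and 834 in DTP libraries. Its log2 change was 0.82, or 1.06 with the trend removed, past the limit. Of 13 genes of the unfolded protein response none rose and 1 fell, or 1 and 0 with the trend removed.

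Of 50 lysosome and autophagy genes 11 rose and none fell (median 0.54), against 9.93% and 16.7% of all genes. With the trend removed 9 rose and none fell (median 0.46). By the adjusted p alone 35 were higher and 6 lower, against 36.4% and 38.8% of all genes. GABARAPL1, an ATG8 protein of autophagosomes and a known FOXO target, rose from 18.1, 18.7 and 17.8 to 130.3, 136 and 134 (log2 change 2.81, SE 0.07, limma adjusted p 6.24e-08). The cathepsins CTSF and CTSL rose by 2.19 and 1.77, and the autophagy receptor OPTN by 1.63. The receptor SQSTM1 (p62) had 333, 327 and 349.6 in Control and 607, 578 and 500.1 in DTP libraries, a log2 change of 0.73. LAMP1 and CTSD, major lysosomal proteins, moved little, at 0.2 and 0.31, and both turned slightly negative with the trend removed (-0.07 and -0.08). The E-box letters CACGTG were in 11 of 38 promoter windows of this list (28.9%), against 9.00% of all.

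HMOX1, heme oxygenase, rose from 2.44, 3.37 and 2.702 to 27.9, 28.2 and 21.9 (log2 change 2.81, SE 0.14, limma adjusted p 1.62e-06), and thioredoxin reductase TXNRD1 from 187, 183 and 175 to 326, 372 and 447 (log2 change 1.05, SE 0.11, limma adjusted p 6.73e-05), a call that was lost at 0.94 without DTP replicate 3. TFRC, the transferrin receptor, fell from 1145, 1159.9 and 1060.4 to 402, 456 and 603 (log2 change -1.22, SE 0.14, limma adjusted p 9.17e-05, and -0.5 with the trend removed). GPX4, which clears lipid peroxides, had overlapping groups, at 126, 123 and 134 in Control and 155, 138 and 103 in DTP libraries. Of 32 redox and ferroptosis genes 3 rose and 3 fell, no larger shares than those of all genes, and 3 and 1 with the trend removed. Of 25 heat shock and chaperonin genes 5 fell and 1 rose (3 and 1 with the trend removed), and the share that fell was near the 16.7% of all genes. HSPA8 fell from 2636, 2674 and 2807 to 1189, 1250.1 and 1199.6 (log2 change -1.16, SE 0.06, limma adjusted p 1.39e-06), while the small heat shock protein gene HSPB8 rose from 159, 152 and 149 to 666, 688 and 647 (log2 change 2.11, SE 0.06, limma adjusted p 9.38e-08).

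**Figure D4:**
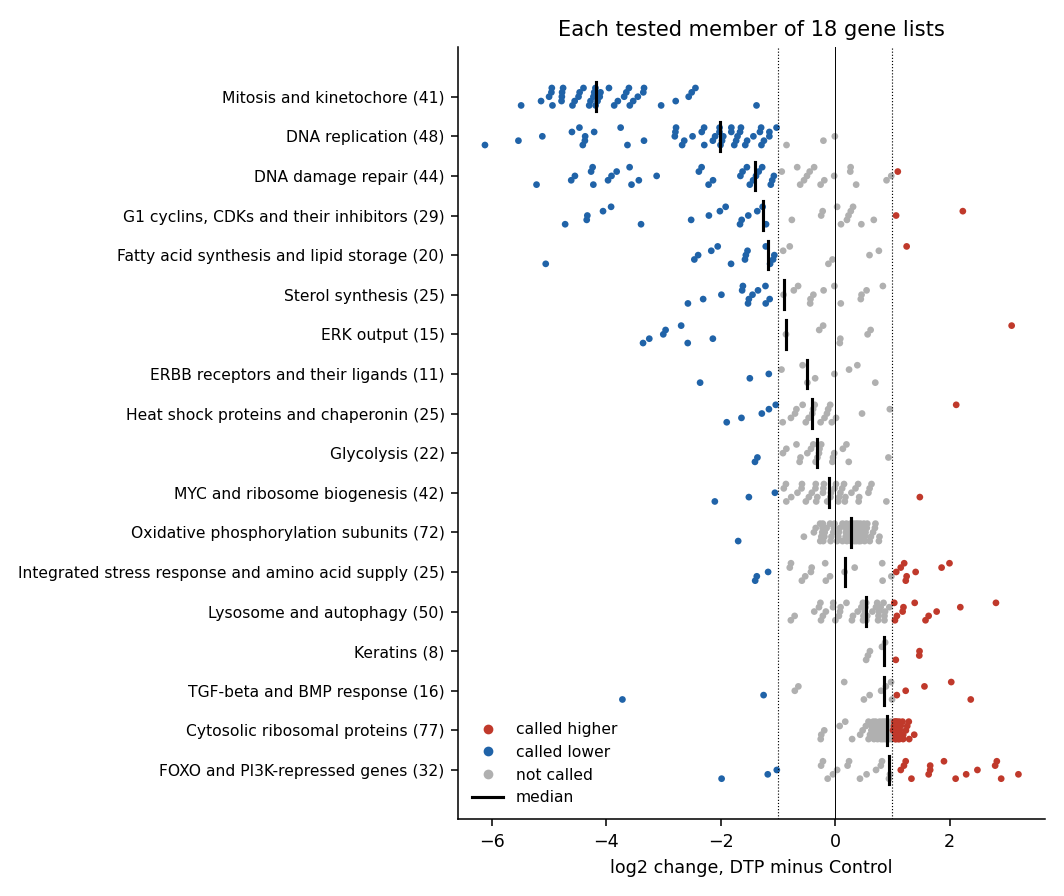
Log2 change between DTP and Control (horizontal axis) of each tested member of 18 gene lists (rows, number tested in brackets). Red and blue points were called higher and lower, grey points were not called, and black bars mark medians. The 41 mitotic genes all lie below -1, and the FOXO list (32 genes, 15 higher) has the highest median.

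Ribosomal protein genes were higher as a block. Of 77 tested 30 rose, none fell, and 72 were higher by the adjusted p alone (median 0.9). With the trend removed 9 rose (median 0.63), and these are short transcripts, with a median of 785 bases. RPL23 was at 3121, 3076 and 3028 in Control and 7889, 8294 and 6438 in DTP libraries (log2 change 1.29, SE 0.09, limma adjusted p 1.08e-05), with DTP replicate 3 the lowest of the DTP libraries, as it was for RPS3 (4532, 4380.2 and 3486 against 1924, 1869 and 1949.5 in Control). The medians of the list in DTP replicates 1, 2 and 3 were 1.04, 0.97 and 0.72 above Control. Many of these genes have near-identical pseudogenes, so single values are uncertain. RPL19 took the largest share of reads of a single gene in each DTP library, 1.02% to 1.43%.

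MYC itself rose from 96.1, 97.6 and 100.1 to 289, 269.6 and 266 normalised read counts (log2 change 1.48, SE 0.07, limma adjusted p 8.07e-07), with no overlap. Of 42 genes of MYC and ribosome biogenesis, MYC was the 1 that rose, and 3 fell, or 1 with the trend removed. POLR1A, the large subunit of RNA polymerase I, fell from 141, 144 and 146 to 27.7, 29.1 and 43.4 (log2 change -2.1, SE 0.16, limma adjusted p 1.17e-05), and the nucleolar helicase DDX21 by 1.51 (-0.76 with the trend removed). NCL and NOP56, nucleolar proteins with strong MYC dependence, moved by -0.21 and 0.09. ODC1, a classical MYC target, had 62.3, 61.05 and 58.2 in Control and 32.98, 36.4 and 36.1 in DTP libraries, a log2 change of -0.77.

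Genes of energy metabolism had few calls. Of 72 subunits of oxidative phosphorylation none rose and 1 fell, NDUFS1 at -1.69 (-0.61 with the trend removed), and the median of the list was 0.28, or 0.00 with the trend removed. In glycolysis 2 of 22 fell, and 5 with the trend removed. HK2, the hexokinase induced in many tumours, went from 120.0, 116 and 121 to 38.1, 45.9 and 50.2 (log2 change -1.4, SE 0.11, limma adjusted p 1.24e-05), and LDHA, lactate dehydrogenase, from 576, 556 and 568 to 213, 222 and 227 (log2 change -1.36, SE 0.06, limma adjusted p 7.51e-07). The glucose carrier SLC2A1 lay above Control in each DTP library, at 301, 292 and 265 against 154, 149 and 145 (log2 change 0.93). Of 14 hypoxia genes 2 rose and 3 fell, near the shares of all genes. NDRG1 was at 1.97 and HIF1A at -1.93 (-1.24 with the trend removed), and VEGFA moved by 0.18 (limma adjusted p 0.0764).

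**Figure D5:**
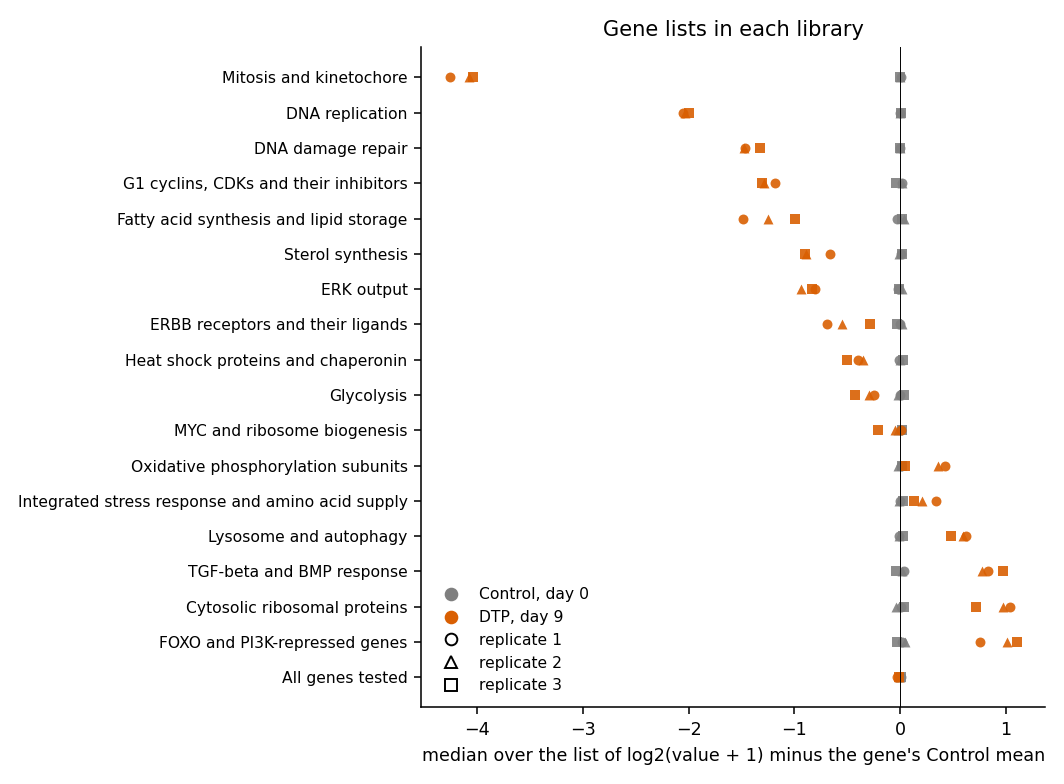
Median over each of 17 gene lists, and over all genes tested, of the log2 difference from the Control mean (horizontal axis), for each of the 6 libraries. Grey marks are Control and orange marks DTP libraries, with marker shape for the replicate. Control libraries of the lists drawn sit between -0.04 and 0.04, the 3 DTP libraries of the mitosis list sit between -4.26 and -4.04, and those of all genes tested sit within 0.03 of 0.

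Luminal genes were measured next. Of 16 luminal transcription factors 2 rose and 3 fell, near the shares of all genes, and 2 and 1 with the trend removed. GATA3, the luminal master factor, rose from 189.5, 183 and 198 to 450.4, 461 and 451 (log2 change 1.25, SE 0.06, limma adjusted p 1.36e-06), and ELF3, an epithelial ETS factor, from 119, 123 and 131 to 423, 354 and 341 (log2 change 1.57, SE 0.09, limma adjusted p 3.71e-06). FOXA1 had 397, 405 and 380.1 in Control and 256, 269 and 307 in DTP libraries, a log2 change of -0.51. SPDEF was just inside the limit, at -0.98, and past it at -1.39 with the trend removed. The estrogen receptor gene ESR1 moved by -0.52 (-0.06 with the trend removed), and of the 21 genes of the receptor and its targets 3 rose and 4 fell, near the shares of all genes. STC2 rose from 194, 195 and 186 to 703, 727 and 739.8 (log2 change 1.91, SE 0.06, limma adjusted p 1.19e-07), and PGR and TFF1 showed no call, at -0.39 and -0.32.

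Of 10 tested milk and apocrine secretory genes 2 fell, near the share of all genes, and none rose. Of 5 mucin genes 3 fell and 1 rose, against 16.7% and 9.93% of all genes, and 2 and 1 with the trend removed. MUC5B and MUC5AC passed the filter through the Control libraries alone, so they had to differ to be tested. PRLR, the prolactin receptor, fell from 738, 762 and 601 to 132, 147 and 204 (log2 change -2.13, SE 0.16, limma adjusted p 1.31e-05, and -0.84 with the trend removed), and MUCL1, a small mucin-like protein, from 176, 189 and 202 to 45.4, 40.9 and 34.4 (log2 change -2.21, SE 0.11, limma adjusted p 1.52e-06). The gel-forming mucin MUC5B was at 78.4, 65.3 and 75.7 in Control and 0.731, 0.888 and 0.749 in DTP libraries (log2 change -5.37, SE 0.11, limma adjusted p 4.26e-08). Its neighbours on chromosome 11 moved alike, as MUC6 fell by 2.42 and MUC5AC went from 1.24, 1.41 and 1.26 to 0 reads in each DTP library, at least 7.55-fold lower against 3 reads, although its call was lost with the trend removed (-0.81 on the log2 scale). MUC20 rose by 1.65. CEACAM5 and CEACAM6, adhesion proteins of epithelia, fell from 4.37, 7.18 and 7.55 to 0.4697, 0.7404 and 0.403 and from 202, 218 and 212 to 22.9, 27.1 and 27.9. The placental alkaline phosphatase gene ALPP rose from 0.4599, 0.217 and 0.559 to 90.3, 83.2 and 72.7 (log2 change 5.88, SE 0.14, limma adjusted p 5.75e-08) and the pregnancy glycoprotein gene PSG4 from 1.01, 0.435 and 1.49 to 57.4, 61.2 and 64.1 (log2 change 5.0, SE 0.19, limma adjusted p 3.49e-07). Both have near-identical paralogs among which reads can be divided, so their values are uncertain.

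All 8 tested keratins were higher by the adjusted p alone (median 0.84), and 3 rose past the limit. The luminal keratins KRT7 and KRT8 had log2 changes of 0.61 and 0.57, or 0.18 and 0.15 with the trend removed. KRT15 rose from 58.04, 55.6 and 55.6 to 172, 163 and 141 (log2 change 1.47, SE 0.09, limma adjusted p 4.31e-06), a call that was lost with all 12 libraries in the fit (limma adjusted p 0.106). In a list that mixes epithelial and mesenchymal markers, TWIST1 rose from 10.2, 8.21 and 9.18 to 74.6, 65.01 and 64.8 (log2 change 2.76, SE 0.11, limma adjusted p 4.45e-07). CDH1 (E-cadherin) had 1094, 1135 and 1146 in Control and 661, 716 and 852 in DTP libraries (log2 change -0.61), VIM (vimentin) had 59.4, 57.8 and 57.6 in Control and 84.3, 97.9 and 88.2 in DTP libraries (0.62), and FN1 was low in both groups. Of 16 markers of either kind 2, TWIST1 and CLDN3, rose and 1, ESRP1, fell, and 1 and 0 with the trend removed, when CLDN3 was at 0.76 and ESRP1 at -0.72. Because the list holds both kinds, these counts give no direction.

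In the TGF-beta and BMP pathway, ligands moved apart. TGFB2 rose from 0.828, 0.815 and 0.466 to 5.43, 7.75 and 10.9 (log2 change 2.37, SE 0.22, limma adjusted p 3.3e-05), and BMP7 fell from 276, 269 and 297 to 20.2, 20.8 and 20.3 (log2 change -3.72, SE 0.07, limma adjusted p 4.26e-08). The BMP-induced repressor ID3 rose from 68.3, 64.8 and 72.2 to 343, 286 and 228 (log2 change 2.03, SE 0.14, limma adjusted p 7.53e-06). ID1 was called at 1.23, but not with all 12 libraries in the fit (limma adjusted p 0.201) nor with the trend removed (0.77). Of 16 genes of the list 5 rose and 2 fell, and as many with the trend removed. Among matrix and adhesion genes 8 of 23 fell and 2 rose (5 and 3 with the trend removed). The integrin subunits ITGA6 and ITGA2 fell, with log2 changes of -2.26 and -2.17 (the latter -1.17 with the trend removed), and the collagen gene COL5A1 rose from 2.02, 1.903 and 2.79 to 26.1, 25.4 and 23.4 (log2 change 3.01, SE 0.13, limma adjusted p 6.73e-07).

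Several of the genes with the largest changes belong to no list. PGM5 (aciculin), a phosphoglucomutase-like protein of cell junctions, rose from 3.63, 4.08 and 4.05 to 133, 153 and 153 (log2 change 4.9, SE 0.1, limma adjusted p 4.26e-08). ALS2CL, a guanine nucleotide exchange factor homologue, went from 9.43, 10.2 and 11.2 to 236, 209 and 184 (log2 change 4.22, SE 0.11, limma adjusted p 6.27e-08). DHRS3, a retinaldehyde reductase, rose from 1.47, 1.47 and 1.72 to 49.4, 46.6 and 35.1 (log2 change 4.12, SE 0.14, limma adjusted p 2.24e-07), and CAV1, the coat protein of caveolae, from 2.02, 2.72 and 2.19 to 44.8, 52.96 and 57.01 (log2 change 3.99, SE 0.13, limma adjusted p 1.62e-07). Each was low in Control and separated by more than 10-fold in every pair of libraries. A2MP1, a pseudogene of alpha-2-macroglobulin, rose to 30.1, 30.3 and 29.2 from 1.33, 1.305 and 1.26, with the reserve that reads of related genes can be assigned to it. On the lower side stood MKI67, the proliferation marker, FAM111B, a replication-linked protease, PRR11, ASPM, a spindle pole protein, and CASC5 (KNL1), a kinetochore scaffold, with log2 changes of -5.94, -5.89, -5.76, -5.45 and -5.43.

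By absolute value the changes fell on abundant transcripts. Among called genes the largest gains of the group means after RPL23 and RPS3 included those of IGFBP3, PGAP3, DYNLRB1 and GRB7. PGAP3 and GRB7 flank ERBB2 on the amplified segment of chromosome 17 and rose from 570.1, 555 and 606 to 1735, 1535 and 1259 and from 543, 526 and 571 to 1448, 1322 and 1131, with GRB7 at 0.87 when the trend was removed. DYNLRB1, a dynein light chain, had a log2 change of 1.28 and also lost the call with the trend removed (0.83). In the same segment CDK12 and MED1 fell, to 257, 306 and 478 from 1015, 1014 and 990.3 and to 1012, 1146 and 1463 from 2641, 2653 and 2656, and both lost the call with the trend removed (-0.91 and -0.42). Of 19 tested neighbours of ERBB2 5 rose and 3 fell, against 9.93% and 16.7% of all genes, so the share that fell was near that of all genes. With the trend removed 4 rose and 2 fell. Clusterin (CLU), a secreted chaperone, rose from 238, 246 and 247 to 901, 901 and 734 (log2 change 1.78, SE 0.09, limma adjusted p 1.48e-06). The largest losses were those of CLTC, the clathrin heavy chain, from 5708, 5789.8 and 5602 to 1847, 2055 and 2574, and of EIF4G2, from 2811, 2821 and 2703 to 796, 951 and 1210.4. CLTC was at -0.47 with the trend removed and EIF4G2 at -1.13. Reference genes were uneven too, with ACTB at -0.15 and GUSB at 1.58 on the log2 scale, and 2 of 10 were called higher, GUSB among them.

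The 6 called genes with a mean of at least 10 that varied most between DTP libraries were all lower than Control, and in 5 of 6 replicate 1 was the lowest and replicate 3 the highest DTP library. ZBED6, a transposon-derived factor encoded in an intron of another gene, was at 106, 106 and 100.5 in Control and 1.62, 4.99 and 15.03 in DTP libraries (log2 change -4.06, SE 0.54, limma adjusted p 0.000237). NCOA2, a nuclear receptor coactivator, was at 7.41, 11.5 and 26.4 against 126, 127 and 121, and RFX7 was at 6.63, 9.58 and 19.3 against 40.3, 41.3 and 35.2. NCR3LG1 had 1.57, 2.67 and 7.72, and EGR1 was the exception, with replicate 2 lowest. RFX7 was called at -1.76, and was at -0.63 with the trend removed.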

How the data were processed

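Polyadenylated RNA of 12 BT474 libraries was sequenced from a stranded kit. Per the study's methods and the labels, the authors aligned reads to hg38 with Rsubread, assigned them to RefSeq genes with default settings, which do not use strand, and normalised with edgeR, so overlapping and antisense genes cannot be told apart. The deposited table holds 1 signal value per gene and library, called normalised read count here. All 199680 values above 0 were whole multiples of 1 read (within 1e-06), and the reads recovered from them gave the depths and entered the count tests.

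The 3 DTP and 3 Control libraries, grouped by title, were compared with limma 3.58.1 (R 4.3.3) on log2(value + 1), with a variance trend, no covariates and Benjamini-Hochberg adjustment over 13155 genes. Every adjusted p is from that fit unless another is named, and fold changes of low genes are understated on this scale. Calls needed an adjusted p below 0.05 together with a change of more than 1 on the log2 scale. An exact permutation test of 3 against 3 cannot go below p = 0.1, so none is given. On simulated counts of 12777 genes, limma recovered 149 of 150 genes changed 3-fold or more, with 0 false calls. Few genes were changed there, all well above the floor, and no trend with length or GC was put in. The simulation therefore checks the code and gives no error rate for these data.

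Named genes were the 10 largest changes in each direction, genes marked in each list, up to 4 called members of a list, the 6 called genes with a mean of at least 10 that varied most among DTP libraries, and the 10 largest gains and losses. Named after their values were seen, outside this rule, were RPL19, COL1A1, DUSP6, ESPL1, CDT1, MCM6, ERCC1, AGPAT2, RICTOR, TP53INP2 and EZH1. Lists, members and rule were chosen with earlier results of these data known. Alternatives were other pseudocounts, filters, scalings and fits, edgeR 4.0.16, DESeq2 1.42.0, leaving out each library, and removal of a loess trend with transcript length and GC from each library. Promoters and genome sequence came from RefSeq and hg38. Intervals and floors cover counting error only. Some named genes are not reported here.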

Additional observations from a re-analysis of the deposited data

How the results depend on the processing

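At the log2 limit of 1, calls numbered 1306 higher and 2202 lower, and at the limit of 2, 140 and 538. With the adjusted p alone they were 4793 and 5099, since most genes differed. With the trend with transcript length and GC removed, an alternative chosen after seeing the data, 1153 were lower at the limit of 1 and 335 at the limit of 2. Higher genes at the limit of 2 numbered 365 with a pseudocount of 0.1, 457 with edgeR and 438 with DESeq2, which were run on reads with no 1 added. Leaving out 1 library gave 1210 to 1489 higher and 1983 to 2544 lower genes, and at the limit of 2, 134 to 159 and 472 to 665. The lowest lower counts came without DTP replicate 1 and the highest without DTP replicate 3. Other counts stayed within 1.5 times of the main ones.

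Of 163 called genes named in the text, 30 lost the call and 2 changed sign with the length and GC trend removed, and 7 lost it with all 12 libraries in the fit. In the other direction, 4 uncalled genes gained a call of the same sign with that trend removed, INSR, HSPA5, DUSP5 and SPDEF. Not stated beside their values, CLDN3 lost its call without DTP replicate 1, JUNB with all 12 libraries, and TP53INP2 with edgeR and without Control replicate 3. Signs that turned with the length and GC trend removed were those of ATM (0.026), KDM5A (0.49), KDM5B (0.52), FOS (-0.31), JUN (-0.18), SESN3 (0.12), FOXO3 (0.25), IGF1R (0.49), MET (0.12), IGFBP5 (0.055), BCL2L11 (0.37), NCL (0.00031), NOP56 (-0.22), SLC7A11 (1.24), LAMP1 (-0.073), CTSD (-0.082), GPX4 (-0.44), TIPARP (0.17), PGR (0.74) and CD44 (0.37), of which only ATM and SESN3 had been called. For uncalled genes near 0 the sign also turned elsewhere, with FOS at -0.0064 with a pseudocount of 0.1, FOS at -0.0025 with a pseudocount of 0.5, FOS at -0.00035 with median-of-ratios scaling, IGFBP2 at 0.046 with edgeR, IGFBP2 at 0.0021 with DESeq2 and BCL2L11 at 0.021 with edgeR. Without 1 library such genes ranged as follows, FOS -0.40 to 0.42, JUN -0.069 to 0.082, IGF1R -0.21 to 0.019, IGFBP2 -0.20 to 0.15, BCL2L11 -0.13 to 0.014 and GPX4 -0.10 to 0.19.

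Same-numbered Control and DTP libraries had deviations correlated at -0.123, -0.118 and -0.458. Control replicate 3 and DTP replicate 1 reached 0.477. The trend with length and GC also separated libraries of a group, so these correlations cannot tell whether the numbers pair samples. With the replicate number as a block 1306 genes were higher and 2202 lower (140 and 538 at the limit of 2), and it changed no call of a named gene.

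Limits are the unclear kind of replicate, which leaves the spread between cultures unknown, the single cell line and time point, and the trend with length and GC that also separated libraries of 1 group. Depth of 16383363 to 22022737 reads put the floor of 3 reads at 0.138 to 0.173 normalised read counts, so fold changes of genes near it are uncertain or bounds only. Groups of 3 were too small for the test of outlying libraries.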

Other observations

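Of 25 tested interferon-stimulated genes 3 rose and 5 fell, near the 9.93% and 16.7% of all genes, and 5 and 5 did so with the length and GC trend removed. OAS3, an RNA sensor, was at 20.9, 21.4 and 17.98 normalised read counts in Control and 1.04, 1.18 and 1.38 in DTP libraries (log2 change -3.26, SE 0.12, limma adjusted p 2.63e-07), and CMPK2 changed by -1.76. The guanylate-binding protein gene GBP2 rose instead, from 21.3, 22.3 and 22.8 to 57.98, 56.96 and 57.8 (log2 change 1.34), although not with all 12 libraries in the fit (limma adjusted p 0.0795). In MHC class I antigen presentation 2 of 12 rose and 2 fell, again near the shares of all genes. HLA-E, a non-classical class I gene, rose from 45.6, 42.7 and 46.96 to 108, 106 and 92.3 (log2 change 1.16, SE 0.09, limma adjusted p 1.32e-05, and 0.87 with the trend removed), while the peptide transporter TAP2 fell from 22.9, 23.5 and 21.7 to 8.45, 9.08 and 8.81 (log2 change -1.28, SE 0.09, limma adjusted p 1.1e-05, and -0.97 with the trend removed). The light chain B2M overlapped between the groups, at 124, 129.8 and 117 in Control and 113, 122 and 112 in DTP libraries. The chemokine CXCL14 was at 18.03, 19.1 and 18.03 in Control and 158, 159 and 126 in DTP cells (log2 change 2.93, SE 0.11, limma adjusted p 2.67e-07), with no overlap.

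Of 10 tested Notch pathway genes 1 rose and 2 fell, near the shares of all genes. The receptors NOTCH1 and NOTCH2 fell from 29.7, 28.4 and 27.9 to 9.97, 11.3 and 11.9 (log2 change -1.3, SE 0.1, limma adjusted p 1.4e-05) and from 400.0, 414 and 406 to 129, 147 and 205 (log2 change -1.36, SE 0.15, limma adjusted p 8.95e-05, and -0.72 with the trend removed), and the ligand JAG1 rose from 5.89, 6.31 and 7.27 to 17.7, 23.2 and 25.7 (log2 change 1.62, SE 0.15, limma adjusted p 3.71e-05). Among targets of YAP and TEAD 4 of 17 rose and 2 fell, against 9.93% and 16.7% of all genes, and 4 and 1 with the trend removed. AMOTL2 was at 152, 152 and 166 in DTP against 67.6, 67.5 and 68.01 in Control libraries (log2 change 1.2, SE 0.07, limma adjusted p 3.58e-06). The factor TEAD1 fell from 171, 176 and 156 to 46.8, 57.9 and 97.2 (log2 change -1.37, SE 0.23, limma adjusted p 0.000818, and -0.46 with the trend removed). Of 13 stem-like and tolerance markers 1 rose and 2 fell, near the shares of all genes. ALDH1A1, a retinaldehyde dehydrogenase, had 22.4, 21.1 and 20.1 in Control and 17.6, 16.4 and 19.1 in DTP libraries (log2 change -0.25), and the surface protein CD44 overlapped at 37.4, 35.2 and 37.2 in Control and 29.5, 31.7 and 37.6 in DTP libraries. SOX2 fell from 1.84, 1.36 and 1.16 to 1, 2 and 1 reads in the DTP libraries, too few to give the size of the fall. Its Control mean was 8.42 times the value of 3 reads. The drug exporter ABCC5 rose from 393, 411 and 399 to 777, 805 and 874 (log2 change 1.03), just past the limit and under it without DTP replicate 3 (0.98).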
